A study of Mus musculus with 4 samples.

Results

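The 9 genes described here respond to glucocorticoid hormones: *Nr3c1*, *Fkbp5*, *Tsc22d3*, *Sgk1*, *Klf9*, *Errfi1*, *Cdkn1a*, *Pdk4* and *Zbtb16*. They were taken as a given list of symbols and were matched by symbol to the Entrez identifiers of the tables. All 9 were present in each library, among 15275 genes listed in all 4 libraries and 17667 genes listed in at least 1. RNA-seq was performed on sympathetic ganglia (SG) at thoracic levels T1–T4, the ganglia whose neurons project to interscapular brown fat. Each library was made from ganglia of 6 C57BL/6 mice, pooled before sequencing, at 12 weeks of age and after 1 day at 5 °C. One library is labelled TRKC+/-, a genotype with 1 intact allele of the neurotrophin 3 receptor TRKC in all cells. Another came from AdNTF3-Tg mice, in which the adiponectin promoter drives neurotrophin 3 in adipocytes and not in neurons. The other 2 libraries, WT 1 and WT 2, came from wild-type mice, and the labels do not say which of them belongs to which mutant, so each mutant library was set against both. No pool from mice kept warm was analysed here, and no hormone level was analysed, so the values compare pools that had all been in the cold.

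Glucocorticoids, which in the mouse means mainly corticosterone, enter cells and bind the glucocorticoid receptor, the product of *Nr3c1*. The receptor then leaves a complex with HSP90 and its cochaperones, moves to the nucleus and raises or lowers transcription of its target genes, often through the glucocorticoid response element (GRE), a palindrome of a pair of hexamers set apart by a short spacer. The hormone rises with stress and with the daily cycle, and its target genes include brakes on the receptor itself, inhibitors of growth signalling and regulators of fuel use.

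RefSeq start-site windows on GRCm38.p6, which run from 250 bases before to 50 bases after each annotated start, were found for 7 of the 9 genes, 16 windows in all. *Nr3c1* and *Zbtb16* had none. A full GRE palindrome, searched as AGAACA and TGTTCT with 3 bases between them, occurred in 3 of all 32851 windows (0.00913%), and 1 of the 3 belonged to *Sgk1*. It lay in 1 of the 6 *Sgk1* windows, beginning 189 bases before a start inside the locus. The 250 bases before that start are shown because they hold the receptor's own full element, with the palindrome in capitals (chr10:21993640-21993889, plus strand).

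Sgk1: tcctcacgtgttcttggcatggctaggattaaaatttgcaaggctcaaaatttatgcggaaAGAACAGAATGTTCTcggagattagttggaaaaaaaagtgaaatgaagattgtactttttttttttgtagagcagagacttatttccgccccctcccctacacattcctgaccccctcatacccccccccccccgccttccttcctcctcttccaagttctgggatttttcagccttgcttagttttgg

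The single GRE hexamer TGTTCT, which the palindrome contains, was in 19.0% of all windows and in 4 of the 16 member windows, 3 of them of *Sgk1* and 1 of *Tsc22d3*. For *Cdkn1a*, an arrest gene induced by p53 as well as by the hormone, CATG, 6 bases of any kind and CATG again begin 48 bases before one start (chr17:29090729-29090978, plus strand, capitals). This pattern was chosen after the sequence had been seen, and 0.712% of all windows hold it. The strict paired p53 element was in 3 windows of all genes and in none of the members.

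Cdkn1a: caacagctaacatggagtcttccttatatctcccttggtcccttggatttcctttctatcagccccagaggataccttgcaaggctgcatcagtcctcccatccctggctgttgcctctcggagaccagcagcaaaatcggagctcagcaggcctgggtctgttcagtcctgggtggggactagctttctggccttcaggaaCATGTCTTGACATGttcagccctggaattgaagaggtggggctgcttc

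*Pdk4*, the member that was low in the library labelled TRKC+/-, has 1 window, and its 250 bases before the start (chr6:5496279-5496528, minus strand, printed in the direction of transcription) hold none of the patterns searched, so no letter is in capitals.

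Pdk4: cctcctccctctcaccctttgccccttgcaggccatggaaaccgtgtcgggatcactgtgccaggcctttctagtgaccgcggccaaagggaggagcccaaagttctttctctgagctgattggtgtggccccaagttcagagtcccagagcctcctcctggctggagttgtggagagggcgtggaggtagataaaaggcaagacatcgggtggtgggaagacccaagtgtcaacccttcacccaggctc

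The other patterns were the cyclic AMP response element TGACGTCA, in 1.79% of all windows and in *Errfi1*, and the E-box CACGTG, in 7.15% of all windows and in *Fkbp5* and *Sgk1*. In *Sgk1* the E-box shares bases with a TGTTCT hexamer. Both strands were searched, and more patterns were looked at than are given here. A match is a run of letters and was not tested as a binding site. A window without a match, such as that of *Pdk4*, leaves elements outside these short windows unseen.

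The libraries held between 8665955 and 8894985 reads on genes, of which the 9 members took between 0.0514% and 0.0556%. Levels are FPKM, reads per length of transcript and depth of the library. Ratios are log2 differences of FPKM + 0.1, which understate the change of low genes, and the intervals in brackets are 95% exact intervals for counting error alone. A gene was counted as different where it lay at least 0.5 on the log2 scale above both WT libraries or below both. With 1 library per mutant, a difference had no replicate check. The gap between WT 1 and WT 2 was the only measured spread between pools of one genotype. The study describes respective WT controls for the mutants. In the WT gap, a difference between mouse lines therefore cannot be told apart from spread between pools. The defining markers of sympathetic neurons were abundant in all 4 libraries: *Th*, which makes the precursor of noradrenaline, stood between 2576 and 2753 FPKM and *Dbh*, which completes the synthesis, between 2100 and 2170 FPKM. *Ntrk3*, the gene for TRKC, was not lower in the library labelled TRKC+/- in these tables. It had 2.45 and 2.52 FPKM in WT 1 and WT 2, 2.72 FPKM in the library labelled TRKC+/- and 2.32 FPKM in the AdNTF3-Tg library, from 76 to 91 reads, and the log2 ratios of the library labelled TRKC+/- were 0.15 (-0.27 to 0.64) to WT 1 and 0.11 (-0.32 to 0.57) to WT 2. The labels do not give which part of the gene the mutant allele lacks. *Ntf3*, the gene for neurotrophin 3, was listed only in the library labelled TRKC+/-, with 2 reads.

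The WT pools stood apart in RNA of other tissues. Summed over 7 skeletal muscle markers, the level was 85.8 FPKM in WT 1, 3.02 in WT 2, 38.4 in the library labelled TRKC+/- and 31.0 in the AdNTF3-Tg library, and 7 of 7 were lower in WT 2 than in WT 1 by at least 0.5. Blood markers summed to 172, 65.2, 146 and 88.0 FPKM in the same order, with *Hbb-bt* listed in none. Of the 4 blood markers listed, *Alas2*, an enzyme of heme synthesis, was at least 0.5 above both WT libraries in both mutants, on 3, 4, 11 and 8 reads in that order. Over all genes, 272 of 15275 lay that far above both in the library labelled TRKC+/- and 324 in AdNTF3-Tg. Between WT 2 and WT 1, 13.4% of all genes differed by at least 0.5, and of the 9 members 1 did, *Zbtb16*.

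The members differed in how far the pools lay apart. The gap between the lowest and the highest library was 0.09 for *Fkbp5*, 0.17 for *Errfi1*, 0.19 for *Cdkn1a*, 0.20 for *Tsc22d3*, 0.24 for *Klf9*, and 0.32 for both *Nr3c1* and *Sgk1*, on the log2 scale. The median gap over all genes was 0.31, and 0.27 over those that reached 1 FPKM on average. Over genes of 4 to 90 FPKM, a span that holds those 7 members, it was 0.24, which *Nr3c1* and *Sgk1* exceeded and *Klf9* barely did. *Pdk4*, with a gap of 1.01, and *Zbtb16*, with 1.4, were the wide ones. In the library labelled TRKC+/-, 1 of 9 members differed from both WT libraries, *Pdk4*, against 4.27% of all genes in either direction and 2.49% in the lower direction. Where both counting intervals also had to exclude 0, *Pdk4* still counted, against 0.628% of all genes. In the AdNTF3-Tg library 0 of 9 differed, against 5.7% of all genes. With 9 members, 1 call and 0 calls against such shares are not read as a property of the list.

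**Figure D1:**
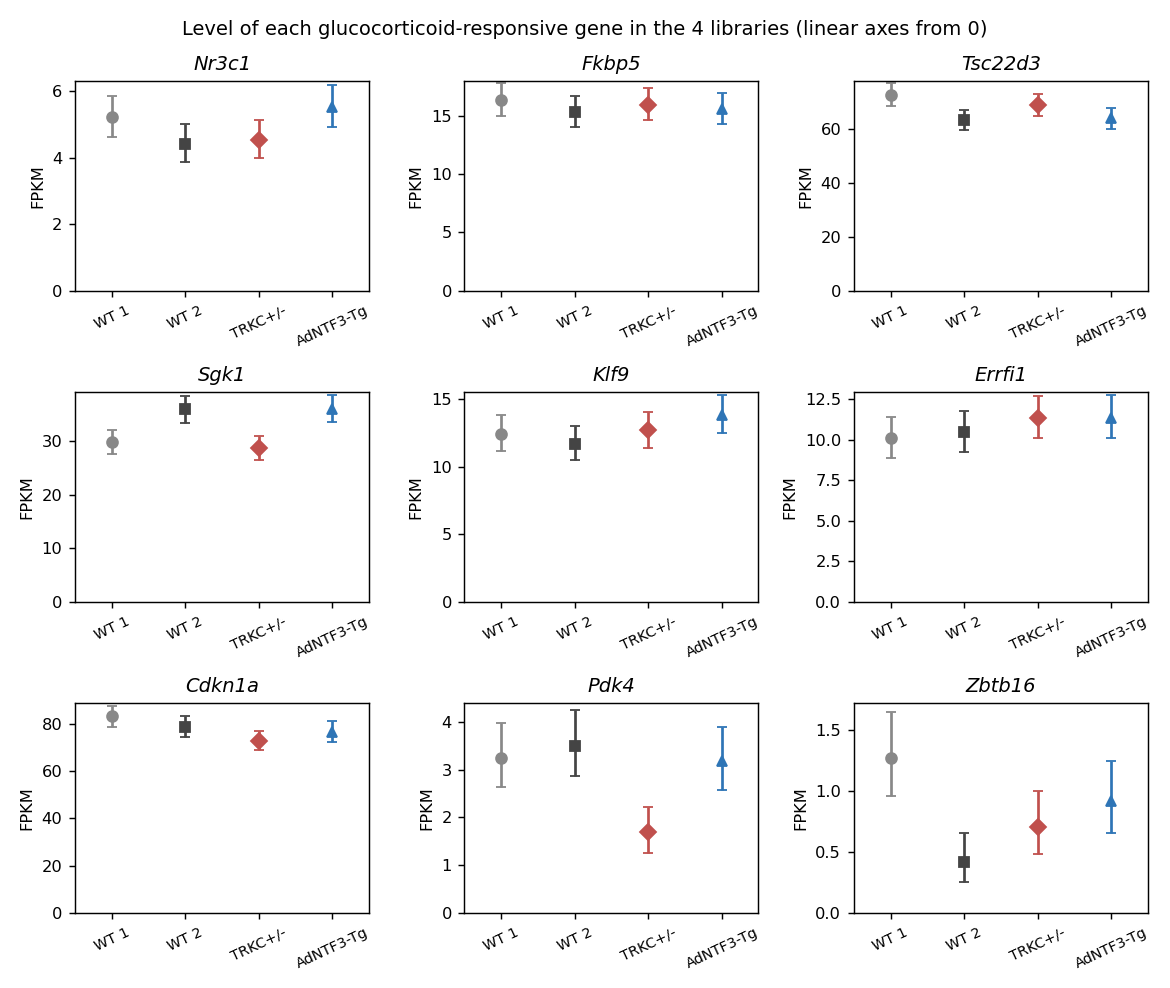
Level of each member (FPKM, linear axes from 0) in WT 1, WT 2, the library labelled TRKC+/- and the AdNTF3-Tg library, 1 point per library with its 95% counting interval. The TRKC+/- point of *Pdk4* at 1.69 FPKM lies below the other 3, which sit between 3.18 and 3.5 FPKM, and the points of *Zbtb16* run from 0.42 to 1.27 FPKM.

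*Nr3c1*, the receptor gene (chromosome 18, 39410545 to 39519421, GRCm38.p6, as for all positions below), had 5.21 FPKM in WT 1, 4.42 in WT 2, 4.53 in the library labelled TRKC+/- and 5.53 in the AdNTF3-Tg library, from 246 to 306 reads. The library labelled TRKC+/- lay between the WT libraries, with log2 ratios of -0.20 (-0.45 to 0.05) to WT 1 and 0.03 (-0.22 to 0.30) to WT 2. AdNTF3-Tg was the highest, 0.08 (-0.16 to 0.32) over WT 1 and 0.32 (0.07 to 0.57) over WT 2, so only the distance to WT 2 was beyond counting error. No neighbours in the order of the 4 levels differed beyond it.

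Among the chaperones and cofactors of the receptor, 0 of the 12 genes with more than 3 reads in a library differed from both WT libraries in either mutant, beside 4.27% of all genes in the library labelled TRKC+/- and 5.7% in AdNTF3-Tg. The medians of the ratios to the mean of the WT libraries were 0.06 for the library labelled TRKC+/- and 0.10 for AdNTF3-Tg, against 0.00 and -0.0027 over all genes. Above both WT libraries by any distance lay 7 and 9 of the 12, against 4866 and 5145 of 15275 genes, and 2 and 1 lay below both. *Ncoa2* in AdNTF3-Tg had the largest ratio to the WT mean, and was 0.54 (0.38 to 0.69) above WT 1 and 0.35 (0.20 to 0.50) above WT 2. *Hsp90ab1*, which encodes an HSP90 that holds the receptor ready for hormone, stayed between 1143 and 1183 FPKM. *Hsp90aa1*, its inducible partner, ranged from 560 to 605 FPKM. *Nr3c2*, the mineralocorticoid receptor, which also binds corticosterone, had 2.02 FPKM in WT 1, 1.26 in WT 2, 1.53 in the library labelled TRKC+/- and 1.81 in the AdNTF3-Tg library, with the WT pools as the extremes. *Hsd11b2*, which inactivates corticosterone in kidney, had 1 to 3 reads per library, at or under the floor of 3 reads, and entered neither the count nor the medians.

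*Fkbp5* (chromosome 17, 28398753 to 28486149) encodes an HSP90 cochaperone that lowers the receptor's affinity for hormone, and it is among the most widely used markers of receptor activity. It had 16.33 FPKM in WT 1, 15.32 in WT 2, 15.93 in the library labelled TRKC+/- and 15.57 in the AdNTF3-Tg library, from 518 to 544 reads. Both mutant levels fell inside the narrow span of the WT libraries. The log2 ratio to the WT mean was 0.01 for the library labelled TRKC+/- and -0.02 for AdNTF3-Tg, and the intervals of the 4 single ratios reached from -0.25 to 0.24, which bounds the difference that counting could have hidden. Of genes that reached 1 FPKM on average, 6.70% had a smaller gap over the 4 libraries.

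*Tsc22d3* (chromosome X, 140539528 to 140600522) encodes GILZ, a leucine zipper protein that carries part of the hormone's anti-inflammatory action. Its level was 72.70 FPKM in WT 1, 63.19 in WT 2, 68.85 in the library labelled TRKC+/- and 63.91 in the AdNTF3-Tg library, from 1067 to 1217 reads. Here the counts were deep enough to resolve the WT pools, with WT 2 at -0.20 (-0.34 to -0.10) relative to WT 1, and both mutants again fell between them. The ratios to the WT mean were 0.02 and -0.09 for the library labelled TRKC+/- and AdNTF3-Tg.

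*Sgk1* (chromosome 10, 21882184 to 21999903) encodes a kinase that raises sodium transport and supports cell survival, and its start-site window with the full GRE is printed above. It stood at 29.86 FPKM in WT 1, 35.96 in WT 2, 28.73 in the library labelled TRKC+/- and 35.99 in the AdNTF3-Tg library, from 656 to 798 reads. The 4 levels formed 2 close pairs, WT 1 with the library labelled TRKC+/- and WT 2 with AdNTF3-Tg. The step between the pairs, 0.27 (0.06 to 0.36) for WT 2 over WT 1, lay between pools of one genotype, and it was the only step between neighbours beyond counting error. The library labelled TRKC+/- was -0.06 (-0.24 to 0.08) from WT 1 and -0.32 (-0.44 to -0.14) from WT 2. AdNTF3-Tg was 0.27 (0.07 to 0.37) from WT 1 and 0.00 (-0.14 to 0.15) from WT 2. The transcript length that the authors' program assigned to *Sgk1* also varied, from 2572 to 2657 bases over its 6 transcripts, and enters the FPKM but not the counting intervals.

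*Klf9* (chromosome 19, 23141226 to 23168129), a zinc finger transcription factor that is a direct and rapid target of the receptor in neurons, had 12.40 FPKM in WT 1, 11.69 in WT 2, 12.68 in the library labelled TRKC+/- and 13.81 in the AdNTF3-Tg library. Both mutants were above both WT libraries. By size these were 0.03 (-0.19 to 0.24) and 0.12 (-0.10 to 0.34) for the library labelled TRKC+/-, and 0.15 (-0.07 to 0.36) and 0.24 (0.02 to 0.46) for AdNTF3-Tg, against a WT gap of -0.08. Reads ranged from 331 to 389.

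*Errfi1* (chromosome 4, 150853796 to 150868889) encodes MIG6, an inhibitor of the EGF receptor family. Levels were 10.07 FPKM in WT 1, 10.46 in WT 2, 11.32 in the library labelled TRKC+/- and 11.36 in the AdNTF3-Tg library, from 261 to 300 reads. It too was higher in both mutants than in both WT libraries, by 0.14 over the WT mean in the library labelled TRKC+/- and 0.14 in AdNTF3-Tg, and all 4 intervals of its single ratios included 0. The extremes, AdNTF3-Tg over WT 1, were 0.17 (-0.08 to 0.41) apart.

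*Cdkn1a* (chromosome 17, 29090979 to 29100722) encodes p21, an inhibitor of cyclin-dependent kinases that both p53 and the glucocorticoid receptor induce. It was the member with the highest level per length, 83.02 FPKM in WT 1, 78.74 in WT 2, 72.69 in the library labelled TRKC+/- and 76.58 in the AdNTF3-Tg library, from 1198 to 1341 reads. Both mutants lay below both WT libraries. The ratios of the library labelled TRKC+/- were -0.19 (-0.31 to -0.09) to WT 1 and -0.12 (-0.22 to 0.01) to WT 2, and those of AdNTF3-Tg were -0.12 (-0.25 to -0.02) and -0.04 (-0.15 to 0.07). Of 13 other p53 targets 0 differed from both WT libraries in either mutant, beside 4.27% and 5.7% of all genes, and the medians were -0.04 and -0.02. *Plk2*, a kinase of the stress response, had 44.8 to 51.6 FPKM over the 4 libraries, and *Bax*, which opens the mitochondrial outer membrane in cell death, had 38.9 to 47.9 FPKM.

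*Pdk4* (chromosome 6, 5483351 to 5496278) encodes a mitochondrial kinase that blocks pyruvate dehydrogenase and so shifts cells from glucose to fat as fuel. It is induced by glucocorticoids, by fasting and through PPAR receptors. *Pdk4* had 3.25 FPKM in WT 1 (96 reads), 3.5 in WT 2 (105 reads), 1.69 in the library labelled TRKC+/- (51 reads) and 3.18 in the AdNTF3-Tg library (95 reads). The library labelled TRKC+/- was the single low one, at 50.1% of the WT mean. Its log2 ratios were -0.90 (-1.47 to -0.45) to WT 1 and -1.01 (-1.56 to -0.55) to WT 2, while the WT libraries differed by 0.10 (-0.31 to 0.51). AdNTF3-Tg lay just under both WT libraries, at -0.03 (-0.46 to 0.39) and -0.13 (-0.55 to 0.28), and was 0.87 (0.41 to 1.43) above the library labelled TRKC+/-.

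In a fit across all 14156 genes with enough reads, in which the spread came from the WT pair alone, *Pdk4* in the library labelled TRKC+/- had a log2 change of -1.0 and an adjusted p of 0.999 by edgeR's quasi-likelihood test (0.972 to 1 over the alternatives). The fit called 0 of 9 members and 0.00706% of all genes, which is 1 gene, *Ucp1*. At an unadjusted p under 0.05 it listed 1 member, *Pdk4*, and 273 genes, and DESeq2 called 0 members and 2 genes. For AdNTF3-Tg edgeR called 0 of 9 members and 0% of genes, with 0 members and 832 genes at an unadjusted p under 0.05, and DESeq2 also called 0 genes.

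**Figure D2:**
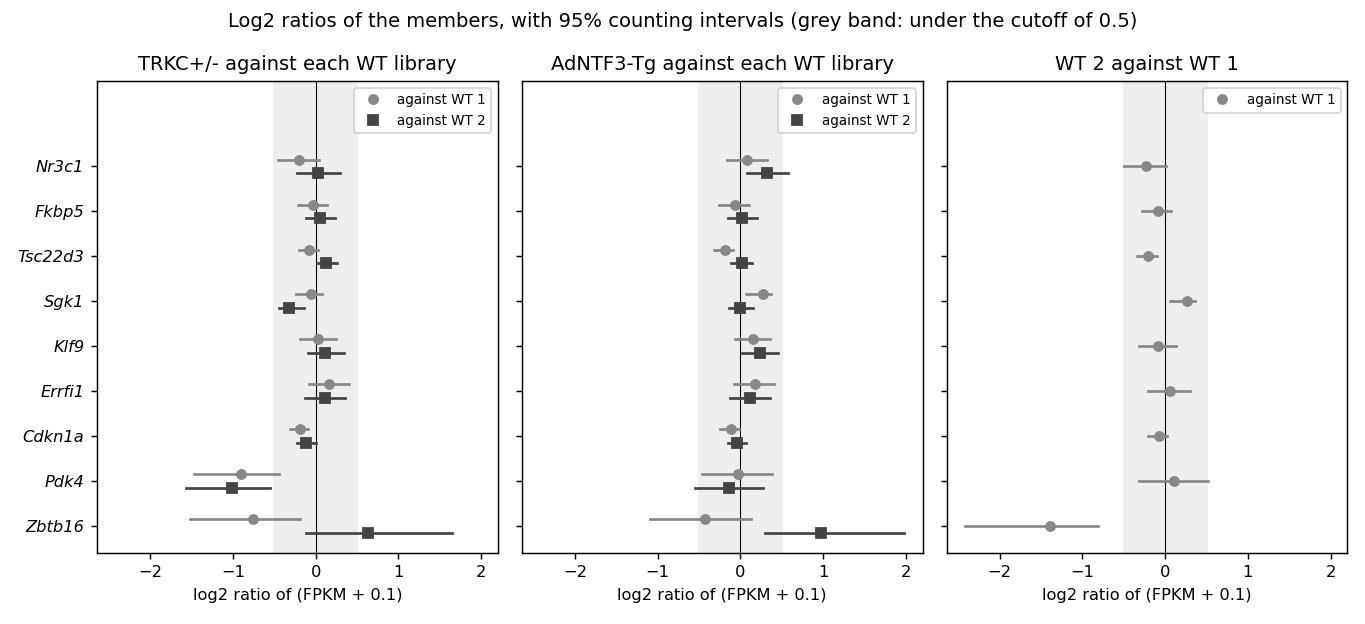
Log2 ratios of FPKM + 0.1 for the 9 members, each mutant library against WT 1 (circles) and WT 2 (squares) and WT 2 against WT 1, with 95% counting intervals as lines. Both *Pdk4* ratios of the library labelled TRKC+/-, -0.90 and -1.01, lie left of the grey band that marks less than 0.5, and the ratios of *Zbtb16* take opposite signs with the WT library used.

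Of 10 other genes of PPAR signalling and fatty acid fuel use, 1 differed in the library labelled TRKC+/-, in the lower direction (2.49% of all genes), and 0 in AdNTF3-Tg (5.7% in either direction), with medians of -0.02 and -0.01. That single call was *Cpt1b*, the muscle and brown fat form of the enzyme that admits fatty acids to mitochondria, with 4.66 FPKM in WT 1, 3.74 in WT 2, 2.10 in the library labelled TRKC+/- and 2.65 in the AdNTF3-Tg library. Its ratios in the library labelled TRKC+/- were -1.11 (-1.65 to -0.67) and -0.80 (-1.35 to -0.33). The other kinases of the same family as *Pdk4* did not follow it past the limit: *Pdk1* was 0.19 above WT 2 and -0.20 from WT 1, *Pdk2* stood at -0.22 and 0.19, and *Pdk3* at -0.36 and -0.17 relative to WT 1 and WT 2. *Cpt1a*, the widely expressed form of the carnitine enzyme, stayed between 64.3 and 67.7 FPKM.

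Over 7 adipocyte markers the summed level was 381 FPKM in WT 1, 344 in WT 2, 211 in the library labelled TRKC+/- and 278 in the AdNTF3-Tg library, and none was at 0 in any library. Below both WT libraries lay 5 of 7 markers in the library labelled TRKC+/- and 6 of 7 in AdNTF3-Tg, against 30.8% and 34.0% of all genes, with medians of -0.26 and -0.44 to the WT mean. The distance was at least 0.5 for 2 of 7 in the former, *Ucp1* and *Fabp4*, against 2.49% of all genes in that direction, and for 1 in AdNTF3-Tg, *Lep*, on 3 reads, against 3.58%. *Ucp1*, the uncoupling protein that defines brown and beige fat, had 47.33, 48.14, 7.80 and 37.81 FPKM in WT 1, WT 2, the library labelled TRKC+/- and AdNTF3-Tg, a log2 ratio of -2.60 to the WT mean (edgeR adjusted p = 0.00205, and 3.47e-17 to 0.972 over the alternatives). *Fabp4*, a fatty acid carrier of adipocytes and capillaries, had 243.98, 224.71, 134.45 and 172.96 FPKM in the same order, -0.80 to the WT mean. *Adipoq*, in contrast, was at 9.0 FPKM in the library labelled TRKC+/-, between 14.03 in WT 1 and 7.56 in WT 2. *Lep* was above both WT libraries in the library labelled TRKC+/-, at 0.499 to the WT mean. Whether adipocyte RNA had a part in the level of *Pdk4* was not tested, and fewer cells of a type and less RNA per cell cannot be told apart in such pools.

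**Figure D3:**
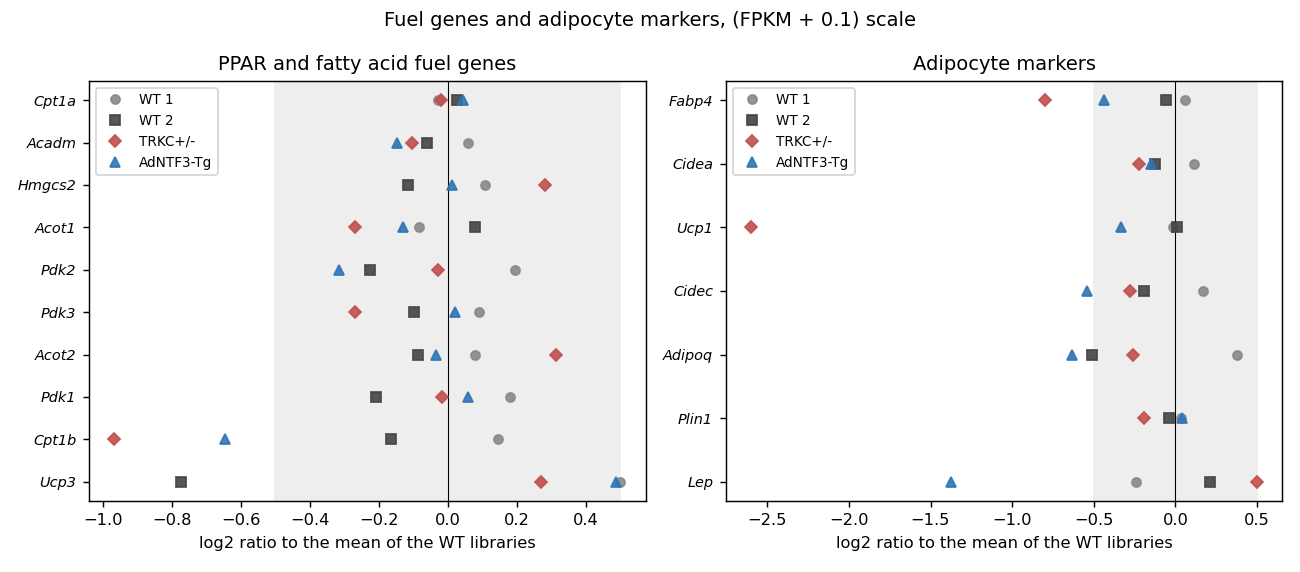
Log2 ratio of FPKM + 0.1 to the mean of the WT libraries for 10 fuel genes (left) and 7 adipocyte markers (right), 1 point per library, with the grey band marking less than 0.5. In the library labelled TRKC+/- *Cpt1b* at -0.97, *Fabp4* at -0.80 and *Ucp1* at -2.60 lie left of the band. In AdNTF3-Tg *Cpt1b* at -0.64, *Cidec* at -0.54, *Adipoq* at -0.63 and *Lep* at -1.38 do.

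*Zbtb16* (chromosome 9, 48651797 to 48836225) encodes PLZF, a zinc finger repressor that glucocorticoids induce strongly in many tissues. It was the lowest member per length and the most variable, with 1.27 FPKM in WT 1 (56 reads), 0.42 in WT 2 (19 reads), 0.71 in the library labelled TRKC+/- (32 reads) and 0.92 in the AdNTF3-Tg library (41 reads). The WT pools formed the 2 extremes, and WT 2 was -1.4 (-2.42 to -0.82) relative to WT 1. Each mutant was below WT 1 and above WT 2, with log2 ratios of -0.76 (-1.52 to -0.19) and 0.64 (-0.12 to 1.65) in the library labelled TRKC+/- and of -0.43 (-1.09 to 0.13) and 0.97 (0.30 to 1.98) in AdNTF3-Tg. No step between neighbours in the order was beyond counting error. WT 1 was also the highest and WT 2 the lowest for the summed muscle and blood markers given above and for 5 fibroblast markers, at 295 FPKM in WT 1, 223 in WT 2, 266 in the library labelled TRKC+/- and 251 in AdNTF3-Tg. In each of these sums the library labelled TRKC+/- was above AdNTF3-Tg, the reverse of *Zbtb16*. The sums of the other marker lists did not have WT 1 highest and WT 2 lowest. Of 6 satellite glia markers 2 were lower in WT 2 than in WT 1 by at least 0.5, *Fabp7* at -0.70 and *S100b* at -0.62, against 7.71% of all genes, and the other 4 lay between -0.21 and 0.06. The part of these cell types in the level of *Zbtb16* was not tested.

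The genes whose profile over the 4 libraries came closest to that of a wide member were found among 12751 or 12752 genes that reached 1 FPKM on average, by the Euclidean distance of log2(FPKM + 0.1) after each profile was centred on its mean. For *Pdk4* these were *Cbln1* (distance 0.0809), *Lrrc2* (0.10) and *4930404N11Rik* (0.108). *Cbln1*, for a cerebellin, had 1.81, 1.98, 0.88 and 1.84 FPKM in WT 1, WT 2, the library labelled TRKC+/- and AdNTF3-Tg, from 18 to 40 reads. For *Zbtb16* they were *Itgbl1* (0.129), *Ear2* (0.171) and *Nhs* (0.172), of which *Nhs* had 35 to 85 reads and *Ear2* 5 to 16. For *Sgk1* they were *Pnck* (0.0136), *Tlcd3a* (0.0179) and *Bdkrb2* (0.0231), and *Pnck*, for a calmodulin-dependent kinase, had 14.52, 17.47, 14.12 and 17.56 FPKM in that order of libraries. Each profile has 4 points, and the likeness is a description.

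Among 22 other genes that glucocorticoids induce, 0 differed from both WT libraries in the library labelled TRKC+/-, against 4.27% of all genes, and in AdNTF3-Tg 1 was higher and 1 lower, against 2.12% and 3.58%. So few calls are not read as a property of the list. The medians of the ratios to the WT mean were 0.11 and -0.03. *Mt1*, a metallothionein that binds zinc and copper and answers to metals as well as to the hormone, had 139.70 FPKM in WT 1, 128.42 in WT 2, 128.75 in the library labelled TRKC+/- and 86.16 in the AdNTF3-Tg library, from 390 to 645 reads. AdNTF3-Tg was the single low library, at 64.3% of the WT mean, with ratios of -0.70 (-0.93 to -0.57) and -0.58 (-0.77 to -0.39). In the fit across all genes this change had an edgeR adjusted p of 0.817 (0.512 to 1 over the alternatives). Its neighbour *Mt2* came close to the limit without passing it, at -0.49 (-0.78 to -0.32) and -0.57 (-0.80 to -0.34) in AdNTF3-Tg and at -0.34 and -0.41 in the library labelled TRKC+/-, and it is named for its likeness to *Mt1* after its values were seen. The gene that was higher, *Lcn2*, rested on 7 to 13 reads.

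**Figure D4:**
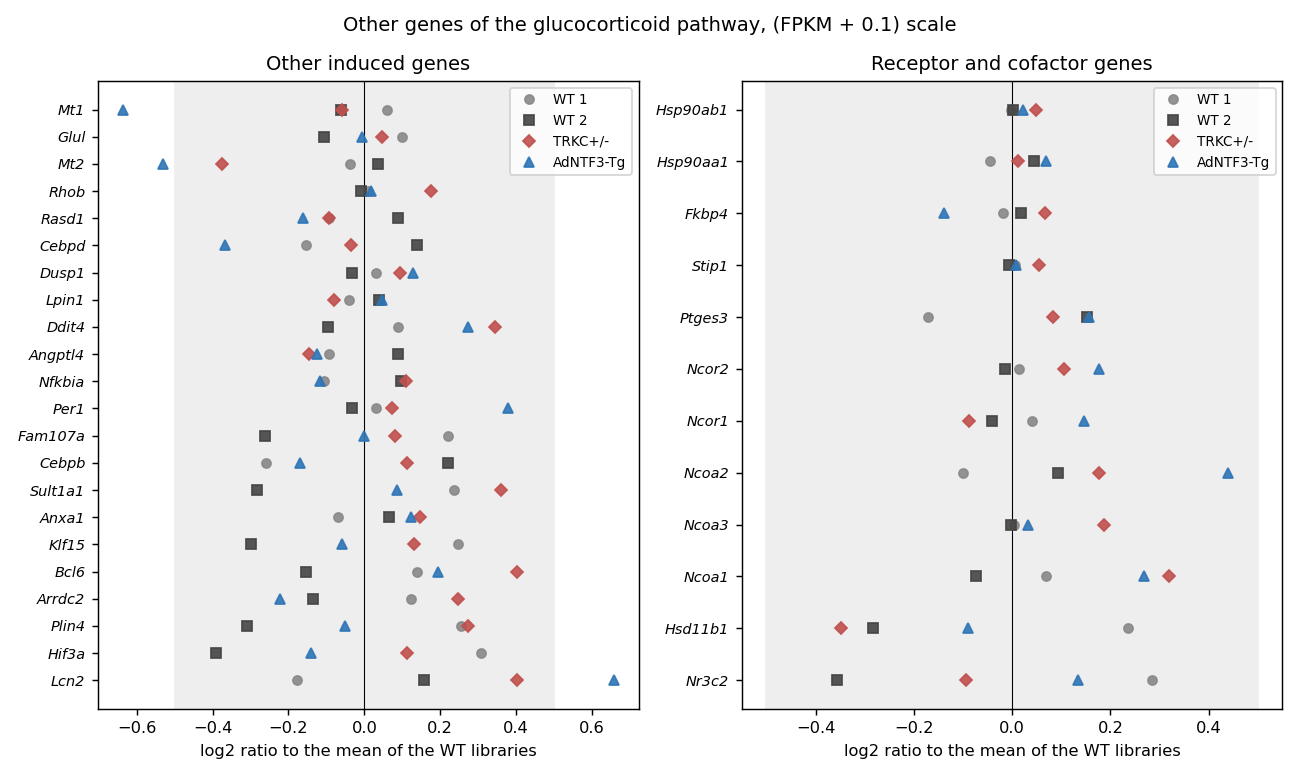
Log2 ratio of FPKM + 0.1 to the mean of the WT libraries for 22 other glucocorticoid-induced genes (left) and the receptor and cofactor genes with more than 3 reads in a library (right), 1 point per library, with the grey band marking less than 0.5. *Mt1* and *Mt2* in AdNTF3-Tg and *Lcn2* in AdNTF3-Tg are the points outside the band.

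Relative to WT 1, WT 2 was lower by at least 0.5 for 4 of the 22, against 7.71% of all genes in that direction: *Klf15* at -0.55, *Hif3a* at -0.70, *Plin4* at -0.56 and *Sult1a1* at -0.52, and it was higher for 0, against 5.67%. Among targets that act as brakes on signalling, *Dusp1*, which removes phosphate from MAP kinases, had 22.2 to 24.9 FPKM, and *Nfkbia*, which holds NF-kB in the cytoplasm, had 17.0 to 19.9 FPKM. *Per1*, a clock gene that the hormone induces within the hour, had 17.21 and 16.47 FPKM in the WT libraries, 17.73 in the library labelled TRKC+/- and 21.94 in AdNTF3-Tg, the last 0.35 and 0.41 above WT 1 and WT 2. These 7 genes are named after their values were seen. Of 8 immediate early genes, which mark recent activity of neurons and other cells, 0 differed from both WT libraries in either mutant, beside 4.27% and 5.7% of all genes, while 3 were higher and 1 lower in WT 2 than in WT 1 by at least 0.5, beside the same shares of 5.67% and 7.71% over all genes. The most abundant, *Nr4a1*, had 35.8 to 46.6 FPKM, and *Fos* had 18.08 FPKM in WT 1, 28.23 in WT 2, 23.20 in the library labelled TRKC+/- and 28.27 in the AdNTF3-Tg library.

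Against the span of the WT libraries alone, 2 members were above both, 3 below both and 4 between them in the library labelled TRKC+/-. In AdNTF3-Tg 4 were above, 2 below and 3 between. Of all genes, 62.6% and 67.6% lay outside that span in the library labelled TRKC+/- and AdNTF3-Tg. Both mutants were compared with the same WT libraries.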

How the data were processed

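RNA-seq libraries were made from oligo(dT)-selected mRNA of 4 pools of SG. The authors deposited, per gene and library, an expected count of reads, which need not be whole because reads can be divided between transcripts, the transcript length used, and an FPKM value, which the authors scaled to that length and to the library. The submitters' processing notes name RSEM and mm10, while the study's methods name SOAPnuke v1.5.2, HISAT2 v2.0.4, mm9 and RPKM. Which applies to the tables could not be settled, and the tables hold no coordinates. Whether counting used strand is not given in the sources used here. Positions, symbols and start-site windows are those of RefSeq GRCm38.p6, in which 17619 of 17667 identifiers matched (99.7%).

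Libraries were grouped by the genotypes in their titles. Ratios were log2((FPKM + 0.1)/(FPKM + 0.1)) over 15275 genes, with the study's cutoff of 0.5 applied to each WT library, and genes missing from a library were left out. Exact Clopper-Pearson 95% intervals were computed from expected counts rounded to whole numbers over library totals, and cover counting error only. The same counts were fitted in edgeR 4.0.16 (R 4.3.3, TMM, filterByExpr, quasi-likelihood test, Benjamini-Hochberg over all genes tested), where the spread had 1 residual degree of freedom from the WT pair, so a lone mutant library was assumed to vary like the WT pair, and in DESeq2 1.42.0 as an alternative. In edgeR the spread of each gene was also moderated with that of the other genes, with a median of 6.79 prior degrees of freedom. Adjusted p-values set each difference against this spread, and no spread between mutant pools entered it. The WT libraries were distinct, with a chi-square per degree of freedom of 4.60 between their counts. For WT 1 it was 2.44 with the library labelled TRKC+/- and 5.72 with AdNTF3-Tg, and for WT 2 it was 3.97 and 3.46, with 1632, 2116, 1933 and 2033 genes at least 0.5 apart. The labels pair none of them, and no pairing was taken from these values.

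The members and lists were chosen with earlier results of these data known. All members were named, and of the other lists the genes that differed in a mutant with at least 20 reads in 1 library, or the 2 most abundant members of a list with none. The 3 closest profiles were named for each of the 3 widest members. Other genes were named after their values were seen. Lists of sympathetic neuron, satellite glia, Schwann cell, endothelial, fibroblast and macrophage markers had 0 genes that differed from both WT libraries in either mutant, beside 4.27% and 5.7% of all genes in the library labelled TRKC+/- and AdNTF3-Tg.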

Additional observations from a re-analysis of the deposited data

How the results depend on the processing

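The 18 ratios of members to the WT mean were recomputed under 6 alternatives each, 108 in all. Of the 72 that kept both WT libraries, 71 stayed within the SD of the WT pair and 1 moved, *Pdk4* in the library labelled TRKC+/- with a pseudocount of 1 (-0.70 against -0.96). Median centring could hardly move a ratio, since the all-gene medians were 0.00 and -0.0027, and a pseudocount moves mainly low genes. The 71 are therefore a weak check. The other 36 left out 1 WT library, and for those the SD is no measure, since the shift is about 0.5 of the WT gap by construction. The sign changed in 7, all 7 when 1 WT library was left out, for *Fkbp5*, *Nr3c1*, *Tsc22d3* and *Zbtb16*. *Pdk4* was the 1 member that differed in the library labelled TRKC+/- and became 0 with a cutoff of 1. Without 1 of the WT libraries, the number of members was 2 to 2 in the library labelled TRKC+/- (*Pdk4* and *Zbtb16*, the latter at 0.64 without WT 1 and -0.76 without WT 2) and 0 to 1 in AdNTF3-Tg (*Zbtb16* at 0.97 without WT 1). After genes under a mean of 1 FPKM were left out, 0 members differed between the WT libraries, because *Zbtb16* was then not tested. No setting changed the 0 members called by edgeR or DESeq2. Over all genes, the counts for the library labelled TRKC+/-, AdNTF3-Tg and the WT pair were 653, 871 and 2044, and became 105, 165 and 633 with a pseudocount of 1, 209, 332 and 926 at 1 FPKM, 1315, 1552 and 3381 with missing genes as 0, 133, 177 and 534 with a cutoff of 1, and 96, 195 and 786 where counting intervals had to exclude 0. They were 1933 and 2033 without WT 1, 1632 and 2116 without WT 2, and 1308 and 1674 against the WT mean. The 1 gene that edgeR called in the library labelled TRKC+/- became 2 with DESeq2, RLE size factors or at least 20 reads, and 0 without a filter. No paired analysis was possible because only the WT libraries carry replicate numbers. At this depth, 19 to 56 reads of *Zbtb16* and 51 to 105 of *Pdk4* left wide counting intervals, and the pools gave no spread between mice.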
